A study of Homo sapiens with 6 samples.

Results

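Hyaluronan synthases, hyaluronidases and receptors were examined as a group of 10 genes, picked by gene symbol from 18418 symbols measured on the arrays. The genes were the synthase genes HAS2 and HAS3, the precursor enzyme gene UGDH, the degradation genes HYAL2, CEMIP and CEMIP2, the receptor and binding protein genes LAYN, HMMR and STAB1, and the proteoglycan gene VCAN. Each symbol was read from 1 transcript cluster, the array's unit for 1 transcript region. LAYN had 2 clusters, and the one with the higher mean over all 6 arrays was used.

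The study sorted cells from 3 related human breast cancer lines: 231BrM-2a, a derivative of MDA-MB-231 selected for metastasis to brain, 231BoM-1833, a derivative selected for metastasis to bone, and MDA-MB-231 itself, the parental line, which is triple-negative and mesenchymal in character. All were cultured in RPMI-1640 medium with serum and antibiotics. From each line, cells without CD24 and with CD44 and ESA on their surface, a profile used to enrich cancer stem cells, were collected by magnetic sorting, and RNA of 2 biological replicates was hybridised to 1 Affymetrix Human Gene 1.0 ST array each. The question was how sorted cells of the metastatic derivatives differ from those of the parental line. Each organ is represented by 1 derivative, so what belongs to the organ and what belongs to that derivative cannot be told apart. The labels do not say whether the replicates were separate cultures, so every p-value rests on a spread among arrays that may be technical.

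Hyaluronan is a long unbranched sugar chain of the extracellular matrix. Synthases in the plasma membrane extrude it while joining UDP-glucuronic acid to UDP-N-acetylglucosamine. Hyaluronidases and CEMIP-type proteins cut the chain, and receptors such as CD44, layilin and RHAMM bind it at the cell. Breast cancer cells of mesenchymal type are known for a thick hyaluronan coat made largely by HAS2, and CD44, one of the markers of this sort, is the main hyaluronan receptor.

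Values are log2 expression, in which 1 unit is a doubling, and the difference between lines is a log2 change ± SE from limma, with p-values adjusted by Benjamini-Hochberg over 21214 clusters with a gene symbol. A change was called at an adjusted p below 0.05. Across clusters, which are not independent, r was 0.9935 to 0.9959 between replicates and 0.9666 to 0.9832 between lines. With 2 arrays a line, precision is limited. Of the markers of mesenchymal breast cancer lines, VIM stood at 12.32 ± 0.031 in 231BrM-2a, 12.91 ± 0.0065 in 231BoM-1833 and 12.69 ± 0.015 in MDA-MB-231 (SD, n = 2 each). Of 6 luminal breast markers, 2 were higher and 1 lower in 231BrM-2a than in MDA-MB-231. The largest change was that of the keratin gene KRT19, which was lower (-1.6 ± 0.14, adjusted p = 0.000122). The keratin gene KRT8 was higher (0.75 ± 0.12, adjusted p = 0.00246). ESR1, the estrogen receptor gene, averaged 5.01 in 231BrM-2a, 5.12 in 231BoM-1833 and 5.19 in MDA-MB-231, while the receptor gene ERBB2 averaged 9.18, 8.38 and 8.73 in these lines and was higher in 231BrM-2a (0.45 ± 0.11, adjusted p = 0.0235). Of the sort markers, CD24 averaged 5.91, 6.12 and 6.12 and EPCAM, which encodes ESA, 8.19, 7.80 and 8.03 in the same lines in that order. The 231BoM-1833 replicates lay farther apart than those of the other lines, at 6.49 and 5.76 for CD24 and at 8.32 and 7.28 for EPCAM. Of 7 fibroblast markers, 3 were higher and 0 lower in 231BrM-2a than in MDA-MB-231 by limma (0 lower at an unadjusted p below 0.05), with a list mean of 5.84 and 5.91 in 231BrM-2a, 5.45 and 5.46 in 231BoM-1833 and 5.64 and 5.59 in MDA-MB-231. Of 5 markers of mesenchymal breast cancer lines, 0 were higher and 2 lower in 231BrM-2a (0 higher unadjusted). Of all clusters, 10.5% were higher and 8.59% lower in this comparison. In 231BoM-1833 against MDA-MB-231, 0 were higher and 1 lower in each of these 2 lists, where 8.43% of all clusters were higher and 7.38% lower. The lower mesenchymal marker was ZEB1 (-0.44 ± 0.11, adjusted p = 0.0248 by limma). The part of fibroblast or mesenchymal markers in the values of the 10 genes was not tested. No background level came with the values, so absence of a transcript cannot be read from them.

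HAS2 fell in 231BrM-2a, while CEMIP2 and LAYN rose in both derivatives against MDA-MB-231 and UGDH rose in 231BoM-1833. The rises in 231BoM-1833 were less firm. LAYN rose there by its brighter cluster only, and the other changed by 0.09 ± 0.11. Dropping parental replicate 2 left changes of 0.64 for CEMIP2 and 0.57 for UGDH and ended both calls. Of the 10 genes, 2 rose and 1 fell in 231BrM-2a relative to MDA-MB-231, where 19.0% of all clusters were called, 10.5% higher and 8.59% lower. In 231BoM-1833 against MDA-MB-231, 3 rose and 0 fell by limma, with 3 lower at an unadjusted p below 0.05, where 15.8% of all clusters were called, 8.43% higher and 7.38% lower. In 231BrM-2a against 231BoM-1833, 2 were higher and 2 lower, where 23.5% of all clusters were called, 12.5% higher and 11.0% lower. The median change of the 10 genes was 0.0065, -0.13 and 0.012 in these 3 comparisons, beside -0.05, -0.052 and 0.013 over all clusters. With arrays centred on their medians, the clusters called in 231BoM-1833 against MDA-MB-231 split into 1997 higher and 1129 lower, beside 1789 and 1565 as deposited, and those in 231BrM-2a against 231BoM-1833 into 2358 and 2558, beside 2642 and 2334. The first 2 comparisons share the MDA-MB-231 arrays. In these bulk samples, fewer cells that express a gene and less of its RNA per cell cannot be told apart.

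**Figure D1:**
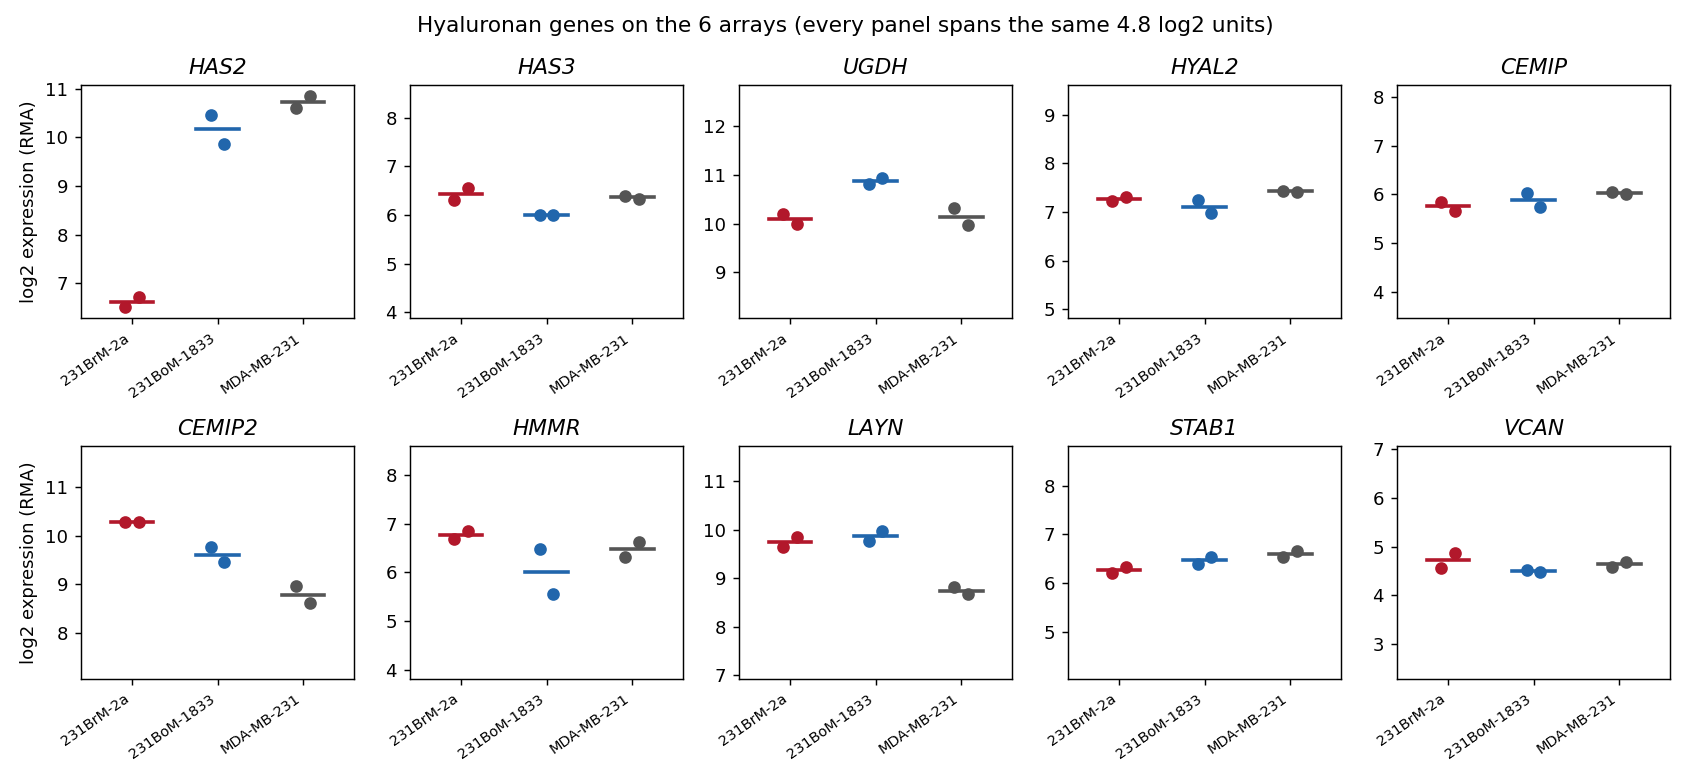
Log2 expression (y axis) of the 10 genes on each array, by line (x axis: 231BrM-2a, 231BoM-1833, MDA-MB-231). Points are arrays, 2 per line, and bars are means. HAS2 lies at 6.51 and 6.71 in 231BrM-2a and at 9.87 or above on the other arrays, and LAYN lies at 9.65 or above in both derivatives and at 8.82 or below in MDA-MB-231.

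**Figure D2:**
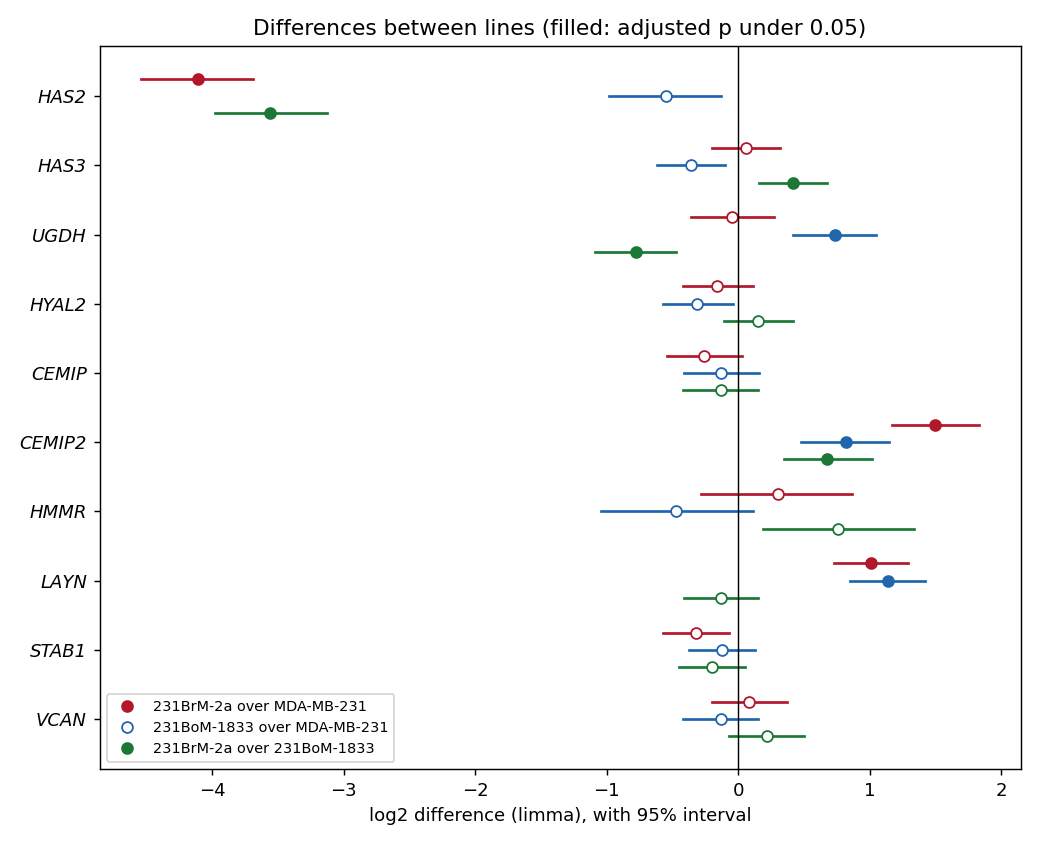
Log2 differences between lines for the 10 genes (x axis) with 95% intervals from limma. Filled points had an adjusted p below 0.05. HAS2 stands apart at -4.11 and -3.56 in the comparisons of 231BrM-2a with MDA-MB-231 and with 231BoM-1833.

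HAS2, the synthase that makes hyaluronan of very high molecular mass, was at 6.51 and 6.71 on the 231BrM-2a arrays, at 10.47 and 9.87 on the 231BoM-1833 arrays and at 10.60 and 10.85 on the MDA-MB-231 arrays. Both 231BrM-2a arrays were far below the other 4, and the groups did not overlap. HAS2 fell 17.3-fold in 231BrM-2a against MDA-MB-231 (-4.11 ± 0.19, adjusted p = 3.98e-06), and it was 11.8-fold lower in 231BrM-2a than in 231BoM-1833 (-3.56 ± 0.19, adjusted p = 3.35e-06). Both calls were made under all 14 alternative settings, such as another normalisation or 1 array left out. Not all of these settings are distinct fits. The changes ran from -4.24 to -3.99 and from -3.86 to -3.26. In 231BoM-1833 against MDA-MB-231 the change was -0.55 ± 0.19 (95% interval -0.98 to -0.13, adjusted p = 0.0765). Over the alternatives it ran from -0.86 to -0.25 (adjusted p = 0.0109 to 0.337), and it was called in 1 of 14, without 231BoM-1833 replicate 1.

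HAS3 is a second synthase, which makes shorter chains. It was at 6.31 and 6.55 in 231BrM-2a, at 6.0 and 6.01 in 231BoM-1833 and at 6.40 and 6.34 in MDA-MB-231. The 231BoM-1833 arrays were the lowest, and the values of 231BrM-2a and MDA-MB-231 overlapped. HAS3 was higher in 231BrM-2a than in 231BoM-1833 by 0.42 ± 0.11 (adjusted p = 0.0261), but the adjusted p was 0.0657 and 0.0703 when either 231BoM-1833 array was dropped, 0.196 without 231BrM-2a replicate 2 (change 0.30) and 0.0638 with unnamed clusters tested too. Against MDA-MB-231 the change was 0.06 ± 0.11 in 231BrM-2a (95% interval -0.20 to 0.32, adjusted p = 0.759) and -0.36 ± 0.11 in 231BoM-1833 (-0.62 to -0.10, adjusted p = 0.0619). HAS3 averaged 6.267 over the 6 arrays, next to the cutoff of 6.26 for the dimmest 33.3% of clusters, so its changes may be compressed. The difference in 231BoM-1833 was called with the dimmest 33.3% of clusters left out (adjusted p = 0.0452).

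UGDH, which oxidises UDP-glucose to UDP-glucuronic acid, was at 10.19 and 9.99 in 231BrM-2a, at 10.82 and 10.93 in 231BoM-1833 and at 10.31 and 9.97 in MDA-MB-231. Both 231BoM-1833 arrays lay above all others. UGDH rose 1.66-fold in 231BoM-1833 against MDA-MB-231 (0.74 ± 0.14, adjusted p = 0.00941), which missed the threshold when parental replicate 2 was dropped (0.57, adjusted p = 0.0802). It was 1.72-fold lower in 231BrM-2a than in 231BoM-1833 (-0.78 ± 0.14, adjusted p = 0.00343). In 231BrM-2a against MDA-MB-231 the change was -0.047 ± 0.14 (95% interval -0.36 to 0.27, adjusted p = 0.848).

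Among 6 measured genes of the precursor pathways outside the 10, 2 rose and 1 fell in 231BrM-2a against MDA-MB-231, where 10.5% of all clusters were higher and 8.59% lower, and their median change was 0.16, beside -0.05 over all clusters. In 231BoM-1833, 2 rose and 0 fell by limma, also 0 at an unadjusted p below 0.05, where 8.43% of all clusters were higher and 7.38% lower, and the median change was 0.067, beside -0.052 over all clusters. GFPT1, the first and rate-limiting enzyme of the hexosamine pathway, was at 11.61 and 11.40 in 231BrM-2a, 11.58 and 11.91 in 231BoM-1833 and 11.01 on both MDA-MB-231 arrays. It rose in both derivatives, by 0.49 ± 0.13 in 231BrM-2a (adjusted p = 0.0331) and by 0.73 ± 0.13 in 231BoM-1833 (adjusted p = 0.00851). Dropping any 1 array of 231BrM-2a or of the parental line ended the first call (adjusted p = 0.0641 to 0.193), as did testing unnamed clusters too (0.0901). Dropping parental replicate 1 (0.0544) or parental replicate 2 (0.066) ended the call in 231BoM-1833.

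UAP1, which makes UDP-N-acetylglucosamine in the last step of that pathway, was at 10.24 and 10.26 in 231BrM-2a, 11.47 and 11.62 in 231BoM-1833 and 10.66 and 10.53 in MDA-MB-231. It rose 1.93-fold in 231BoM-1833 (0.95 ± 0.11, adjusted p = 0.000916) and was 2.46-fold lower in 231BrM-2a than in 231BoM-1833 (-1.30 ± 0.11, adjusted p = 5.26e-05). The other enzymes of these pathways were not called in 231BoM-1833, with changes of -0.19 for GNPNAT1 (adjusted p = 0.288), 0.093 for UGP2 (0.58), 0.041 for PGM1 (0.823) and 0.021 for UXS1 (0.932). GNPNAT1, which acetylates glucosamine phosphate in the middle of the hexosamine pathway, fell by 0.64 in 231BrM-2a (SE 0.11, adjusted p = 0.00496). Dropping parental replicate 2 gave an adjusted p of 0.0531. UXS1, which draws UDP-glucuronic acid off to UDP-xylose for proteoglycan linkers, was at 10.42 and 10.52 in 231BrM-2a, 9.61 and 9.25 in 231BoM-1833 and 9.44 and 9.37 in MDA-MB-231. It rose 2.09-fold in 231BrM-2a against MDA-MB-231 (1.06 ± 0.13, adjusted p = 0.000895) and was 2.06-fold higher there than in 231BoM-1833 (adjusted p = 0.000612).

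HYAL2, a hyaluronidase anchored to the cell surface, was at 7.23 and 7.31 in 231BrM-2a, at 7.24 and 6.99 in 231BoM-1833 and at 7.44 and 7.41 in MDA-MB-231. Its change was -0.16 ± 0.12 in 231BrM-2a (95% interval -0.42 to 0.11, adjusted p = 0.391) and -0.31 ± 0.12 in 231BoM-1833 (-0.57 to -0.04, adjusted p = 0.105), each against MDA-MB-231. HYAL2 in 231BoM-1833 was called in 1 of 14 alternatives, with that line's replicate 1 dropped (-0.43, adjusted p = 0.0486). CEMIP, a secreted protein that binds and depolymerises hyaluronan, was at 5.85 and 5.66 in 231BrM-2a, at 6.03 and 5.75 in 231BoM-1833 and at 6.04 and 6.0 in MDA-MB-231. None of its 3 differences was called (adjusted p = 0.191 to 0.53), and its intervals against MDA-MB-231 ran from -0.54 to 0.03 in 231BrM-2a and from -0.41 to 0.16 in 231BoM-1833.

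CEMIP2, a membrane relative of CEMIP described in mouse as a cell surface hyaluronidase, was at 10.29 on both 231BrM-2a arrays, at 9.76 and 9.45 in 231BoM-1833 and at 8.97 and 8.61 in MDA-MB-231. The 3 lines did not overlap. CEMIP2 rose 2.83-fold in 231BrM-2a (1.5 ± 0.15, adjusted p = 0.000219) and 1.76-fold in 231BoM-1833 (0.82 ± 0.15, adjusted p = 0.00783) against MDA-MB-231, and was 1.6-fold higher in 231BrM-2a than in 231BoM-1833 (0.68 ± 0.15, adjusted p = 0.00941). The change in 231BrM-2a was called under all 14 alternatives (1.32 to 1.68). The call in 231BoM-1833 ended when parental replicate 2 was dropped (0.64, adjusted p = 0.071). The call between the derivatives ended with 231BoM-1833 replicate 2 dropped (0.53, adjusted p = 0.0521) and with either 231BrM-2a array dropped (0.0536 and 0.054).

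Of 4 other degradation genes measured, the change was largest for HEXA, which encodes a subunit of lysosomal beta-hexosaminidase, an enzyme that trims hyaluronan fragments. It was at 9.96 and 9.73 in 231BrM-2a, 9.36 and 9.54 in 231BoM-1833 and 9.27 and 9.11 in MDA-MB-231. HEXA rose 1.57-fold in 231BrM-2a against MDA-MB-231 (0.65 ± 0.13, adjusted p = 0.0071), but its adjusted p was 0.0698 with parental replicate 2 dropped and 0.0636 with 231BrM-2a replicate 1 dropped. Of the 4, 0 were called in 231BoM-1833 by limma (0 at an unadjusted p below 0.05), where the change of HEXA was 0.26 ± 0.13 (adjusted p = 0.195). There, 8.43% of all clusters were higher and 7.38% lower.

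The 250 bases before the start of 3 of the genes with a call are shown, so that the letters before genes that moved differently stand beside their values: between the derivatives UGDH was lower and HAS3 and CEMIP2 were higher in 231BrM-2a. They are RefSeq sequences of the GRCh38.p14 reference, not of these lines, and 8 of the 10 genes had an entry.
UGDH, chr4:39527440-39527689, minus strand: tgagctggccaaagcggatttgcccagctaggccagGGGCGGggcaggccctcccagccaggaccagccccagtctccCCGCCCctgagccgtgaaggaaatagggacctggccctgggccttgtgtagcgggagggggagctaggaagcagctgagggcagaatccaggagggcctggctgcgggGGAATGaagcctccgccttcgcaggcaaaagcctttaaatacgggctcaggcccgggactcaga
CEMIP2, chr9:71768514-71768763, minus strand: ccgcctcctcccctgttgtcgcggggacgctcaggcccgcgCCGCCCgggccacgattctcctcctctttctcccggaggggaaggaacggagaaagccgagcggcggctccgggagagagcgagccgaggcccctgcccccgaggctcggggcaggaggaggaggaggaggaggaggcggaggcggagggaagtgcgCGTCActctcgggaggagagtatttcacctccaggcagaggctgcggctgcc
HAS3, chr16:69107290-69107539, plus strand: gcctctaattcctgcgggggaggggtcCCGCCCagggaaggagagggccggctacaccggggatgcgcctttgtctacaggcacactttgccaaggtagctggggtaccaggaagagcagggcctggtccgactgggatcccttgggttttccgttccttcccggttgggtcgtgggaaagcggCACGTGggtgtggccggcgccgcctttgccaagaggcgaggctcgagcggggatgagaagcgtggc
Capitals mark matches, on either strand, to 8 short motifs: the GC box GGGCGG, the CCAAT box written as CCAAT, the TATA box written as TATAAA, the E-box CACGTG, the AP-1 motif TGANTCA, the core of a cyclic AMP response element TGACG, the TEAD motif GGAATG and the STAT motif TTCNNNGAA. UGDH held 2 GC boxes and 1 TEAD match, CEMIP2 held 1 GC box and 1 TGACG, and HAS3 held 1 GC box and 1 E-box, with no overlap between matches. Of 35116 promoter windows of this length, 42.6% held a GC box, 32.0% a CCAAT box, 10.7% a TATA box, 6.34% an E-box, 6.57% the AP-1 letters, 21.2% TGACG, 11.9% GGAATG and 6.57% the STAT letters. The matches are a description of letters. G and C made up 66.0% of the UGDH window, 71.6% of the CEMIP2 window and 66.0% of the HAS3 window, beside a median of 58.0% over all windows.

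LAYN encodes layilin, a membrane receptor for hyaluronan that binds talin at the cell edge. Its brighter cluster was at 9.65 and 9.85 in 231BrM-2a, at 9.77 and 9.98 in 231BoM-1833 and at 8.82 and 8.67 in MDA-MB-231, with both derivatives above all parental arrays. It rose 2.01-fold in 231BrM-2a (1.01 ± 0.12, adjusted p = 0.000805) and 2.20-fold in 231BoM-1833 (1.14 ± 0.12, adjusted p = 0.00073), and the derivatives differed by -0.13 ± 0.12 (95% interval -0.41 to 0.15, adjusted p = 0.53). The dimmer cluster of LAYN was at 7.22 and 7.32 in 231BrM-2a, 7.03 and 6.83 in 231BoM-1833 and 6.78 and 6.90 in MDA-MB-231. It rose by 0.43 ± 0.11 in 231BrM-2a (adjusted p = 0.029), but its change in 231BoM-1833 was 0.09 ± 0.11 (adjusted p = 0.611), so the clusters disagree on the bone-selected line.

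HMMR encodes RHAMM, which binds hyaluronan outside the cell and the mitotic spindle inside it, and is itself made mainly in dividing cells. It was at 6.69 and 6.86 in 231BrM-2a, at 6.48 and 5.55 in 231BoM-1833 and at 6.32 and 6.63 in MDA-MB-231. The 231BoM-1833 replicates lay farther apart than those of any other line. None of the 3 differences was called: 0.30 ± 0.25 in 231BrM-2a (95% interval -0.28 to 0.87, adjusted p = 0.456), -0.47 ± 0.25 in 231BoM-1833 (-1.04 to 0.11, adjusted p = 0.24), and 0.76 ± 0.25 for 231BrM-2a over 231BoM-1833 (0.19 to 1.34, adjusted p = 0.0591). With 231BoM-1833 replicate 1 dropped, HMMR was -0.93 in 231BoM-1833 against MDA-MB-231 (adjusted p = 0.00936) and 1.23 between the derivatives (adjusted p = 0.00121), while over all alternatives these ran from -0.93 to -0.00046 and from 0.30 to 1.23. The difference between the derivatives was also called with the dimmest 33.3% of clusters left out (adjusted p = 0.0488). The mean of 11 proliferation markers was 10.41 and 10.57 in 231BrM-2a, 10.45 and 10.00 in 231BoM-1833 and 10.15 and 10.13 in MDA-MB-231, so 231BoM-1833 replicate 2 was the lowest array for HMMR and for this mean. The markers were split in 231BoM-1833 against MDA-MB-231, with 3 higher and 2 lower by limma, where 8.43% of all clusters were higher and 7.38% lower. On that replicate, MKI67 (10.25), TOP2A (10.99) and BUB1 (10.52) lay above both parental arrays. PCNA (9.71) and MCM2 (8.7) lay below them. In 231BrM-2a, 4 were higher and 0 lower (10.5% and 8.59% of all clusters). The part of proliferation in the HMMR values was not tested.

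STAB1, a scavenger receptor of macrophages and sinusoidal endothelium whose relative STAB2 clears hyaluronan, was at 6.20 and 6.33 in 231BrM-2a, at 6.40 and 6.54 in 231BoM-1833 and at 6.53 and 6.65 in MDA-MB-231. Its change was -0.32 ± 0.11 in 231BrM-2a (95% interval -0.57 to -0.07, adjusted p = 0.0761) and -0.12 ± 0.11 in 231BoM-1833 (-0.37 to 0.13, adjusted p = 0.495). Of 10 leukocyte and macrophage markers, 0 rose and 1 fell in 231BrM-2a by limma (0 higher at an unadjusted p below 0.05), where 10.5% of all clusters were higher and 8.59% lower, and their mean was 6.16 and 6.09 in 231BrM-2a, 6.32 and 6.39 in 231BoM-1833 and 6.31 and 6.34 in MDA-MB-231. In 231BoM-1833, 1 rose and 0 fell (2 higher and 0 lower at an unadjusted p below 0.05). Of all clusters, 8.43% were higher and 7.38% lower in that comparison. CD14, a monocyte receptor, fell in 231BrM-2a (-0.50 ± 0.12, adjusted p = 0.0195) and rose in 231BoM-1833 (0.88 ± 0.12, adjusted p = 0.00219), each against MDA-MB-231. CD68, a lysosomal protein abundant in macrophages, averaged 10.91 in 231BrM-2a, 11.54 in 231BoM-1833 and 11.19 in MDA-MB-231, and was lower in 231BrM-2a than in 231BoM-1833 (adjusted p = 0.00389). PTPRC, which marks all leukocytes, averaged 3.71 in 231BrM-2a, 3.68 in 231BoM-1833 and 3.73 in MDA-MB-231. Of 8 endothelial and lymphatic markers, 0 rose and 2 fell in 231BrM-2a by limma (0 higher and 4 lower at an unadjusted p below 0.05), the growth factor receptor gene KDR (-1.13 ± 0.13, adjusted p = 0.000425) and the adhesion gene PECAM1 (-0.38 ± 0.11, adjusted p = 0.0382). The other 6 were not called, with changes of 0.25 for TEK, -0.043 for CDH5, -0.068 for VWF, -0.068 for STAB2, -0.29 for LYVE1 and -0.36 for PROX1. The mean of all 8 was 5.15 and 5.21 in 231BrM-2a, 5.37 and 5.40 in 231BoM-1833 and 5.48 and 5.40 in MDA-MB-231. It was lowest on the 231BrM-2a arrays, with KDR the largest change. In 231BoM-1833, 1 of the 8 rose, KDR (0.44 ± 0.13, adjusted p = 0.0444 by limma), and 0 fell (2 lower unadjusted). There, 8.43% of all clusters were higher and 7.38% lower. The part of such cells in the STAB1 values was not tested.

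Of 6 other receptor genes, 1 rose and 1 fell in 231BrM-2a against MDA-MB-231, and 0 rose and 1 fell in 231BoM-1833 by limma (1 higher at an unadjusted p below 0.05). Of all clusters, 10.5% were higher and 8.59% lower in 231BrM-2a, and 8.43% and 7.38% in 231BoM-1833. TLR2, an innate receptor reported to answer to hyaluronan fragments, was at 5.70 and 5.32 in 231BrM-2a, 8.61 and 7.97 in 231BoM-1833 and 8.84 and 8.28 in MDA-MB-231. Like HAS2, it was low on both 231BrM-2a arrays and on no other, and it fell 8.28-fold against MDA-MB-231 (-3.05 ± 0.24, adjusted p = 7.05e-05). Both 231BrM-2a values lay below 6.26, the cutoff on cluster means for the dimmest 33.3%, so this fold may be compressed. TLR4, a receptor with the same reported ligand, was at 10.37 and 10.33 in 231BrM-2a, 9.16 and 9.31 in 231BoM-1833 and 10.49 and 10.54 in MDA-MB-231. It fell 2.43-fold in 231BoM-1833 against MDA-MB-231 (-1.28 ± 0.11, adjusted p = 0.000146), and its change in 231BrM-2a was -0.16 ± 0.11 (adjusted p = 0.325). ICAM1, an adhesion receptor, rose 2.17-fold in 231BrM-2a (1.12 ± 0.15, adjusted p = 0.0011) and had a change of 0.49 ± 0.15 in 231BoM-1833 (adjusted p = 0.0529, called in 4 of 14 alternatives).

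CD44, which the sort itself required, was at 11.45 and 11.46 in 231BrM-2a, 12.17 and 11.82 in 231BoM-1833 and 11.87 and 11.86 in MDA-MB-231. It was lower in 231BrM-2a than in 231BoM-1833 by limma (-0.54 ± 0.13, adjusted p = 0.014), but the adjusted p was 0.0565 with 231BoM-1833 replicate 1 dropped and 0.074 and 0.0704 with either 231BrM-2a array dropped. Against MDA-MB-231, the difference was -0.41 ± 0.13 in 231BrM-2a (adjusted p = 0.055, called in 7 of 14 alternatives) and 0.14 ± 0.13 in 231BoM-1833 (adjusted p = 0.501).

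VCAN encodes versican, a large proteoglycan that binds hyaluronan through its head domain. It was at 4.56 and 4.87 in 231BrM-2a, at 4.51 and 4.48 in 231BoM-1833 and at 4.58 and 4.69 in MDA-MB-231. Its change was 0.083 ± 0.13 in 231BrM-2a (95% interval -0.20 to 0.37, adjusted p = 0.688) and -0.13 ± 0.13 in 231BoM-1833 (-0.42 to 0.15, adjusted p = 0.501). VCAN and CEMIP were the members in the dimmest 33.3% of clusters (mean log2 value of 6.26 or less), where array folds are often compressed. Of 19 other genes for hyaluronan-binding matrix proteins, 1 rose and 1 fell in 231BrM-2a, with a median change of -0.074. There, 10.5% of all clusters were higher and 8.59% lower. In 231BoM-1833, 0 rose and 1 fell by limma (0 higher and 3 lower at an unadjusted p below 0.05), with a median of -0.13. Of all clusters, 8.43% were higher and 7.38% lower in that comparison.

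HAPLN3, a link protein that fastens proteoglycans to hyaluronan, was at 7.52 and 7.72 in 231BrM-2a, 7.19 and 7.12 in 231BoM-1833 and 7.09 and 7.05 in MDA-MB-231. It rose 1.47-fold in 231BrM-2a (0.55 ± 0.11, adjusted p = 0.0083), while BCAN, the brevican gene, fell 1.43-fold (-0.51 ± 0.10, adjusted p = 0.0086). Both calls ended with parental replicate 2 dropped (adjusted p = 0.0661 for HAPLN3 and 0.0654 for BCAN) and with 231BrM-2a replicate 2 dropped (0.0811 and 0.0794). ITIH1, a heavy chain that is transferred onto hyaluronan, was lower in 231BoM-1833 (-0.39 ± 0.11, adjusted p = 0.0487), a call made in 2 of 13 alternatives. Its adjusted p was 0.171 with 231BoM-1833 replicate 2 dropped (-0.28), 0.183 and 0.15 with either parental array dropped and 0.0788 with either 231BrM-2a array dropped. In all, of 35 measured genes of the wider list, 5 rose and 3 fell in 231BrM-2a (median -0.068) and 2 rose and 2 fell in 231BoM-1833 (median 0.0015), beside the shares of all clusters given above.

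**Figure D3:**
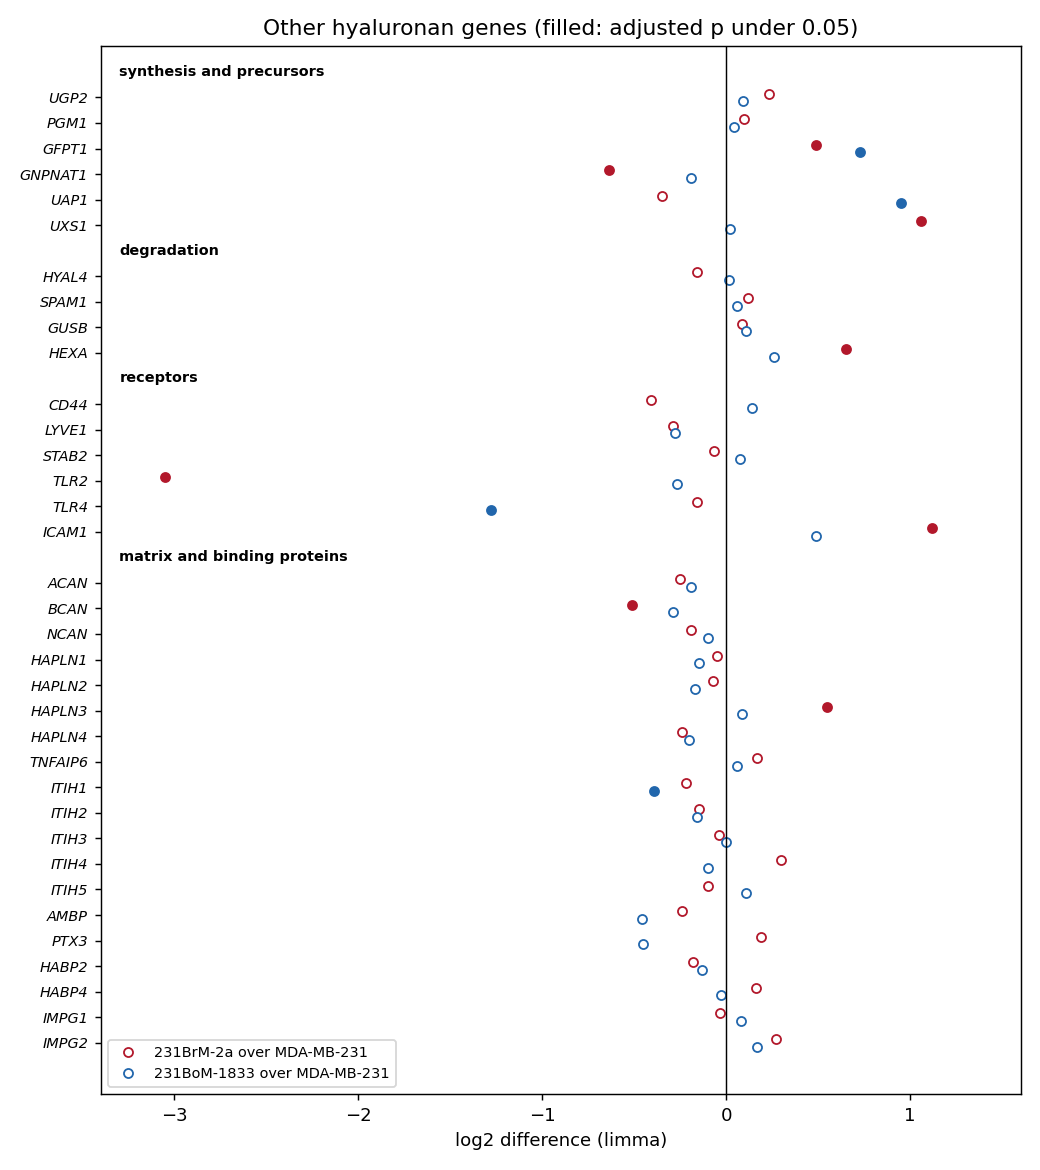
Log2 differences from MDA-MB-231 (x axis) of 35 other hyaluronan genes by role, for 231BrM-2a (red) and 231BoM-1833 (blue). Filled points had an adjusted p below 0.05. TLR2 lies lowest at -3.05 in 231BrM-2a, and UAP1 and GFPT1 are filled and above 0 in 231BoM-1833.

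The genes next to each member on its chromosome were set beside it, 5 measured genes on each side in RefSeq order. Around HAS2 on chromosome 8, the 10 neighbours changed by -0.33 to 0.51 in 231BrM-2a against MDA-MB-231 (median 0.093), with 1 called higher, while HAS2 changed by -4.11. Around LAYN on chromosome 11, the neighbours changed by -0.27 to 0.64 in 231BrM-2a and by -0.38 to 0.32 in 231BoM-1833, below the changes of LAYN in both lines. Of the neighbours of UGDH on chromosome 4, 6 of 10 were lower in 231BrM-2a than in 231BoM-1833, with a median of -0.56, beside -0.78 for UGDH itself, where 11.0% of all clusters were lower. Against MDA-MB-231, 3 UGDH neighbours were lower in 231BrM-2a (median -0.31, beside -0.047 for UGDH), where 8.59% of all clusters were lower, and 2 were higher in 231BoM-1833 (median 0.017), where 8.43% were higher. Of the last 2, SMIM14, picked after its value was seen because it lies directly beside UGDH, changed by 0.73 ± 0.14 (adjusted p = 0.00953).

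Around HAS3 on chromosome 16, 4 of 10 neighbours were lower in 231BoM-1833 than in MDA-MB-231, where 7.38% of all clusters were lower. Their median was -0.22, beside -0.36 for HAS3, which was not called there. In 231BrM-2a against MDA-MB-231, 1 neighbour was higher and 2 lower (median -0.18, beside 0.06 for HAS3), with 10.5% and 8.59% of all clusters. Between the derivatives, where HAS3 was called (0.42), 2 neighbours were higher and 0 lower in 231BrM-2a (median 0.054). There, 12.5% of all clusters were higher and 11.0% lower. Around CEMIP2 on chromosome 9, 3 of 10 neighbours were higher in 231BrM-2a and 3 in 231BoM-1833 than in MDA-MB-231, where 10.5% and 8.43% of all clusters were higher. The neighbour medians were 0.12 and 0.16, beside 1.5 and 0.82 for CEMIP2. MAMDC2, 5 places from CEMIP2, rose by 3.33 ± 0.24 in 231BrM-2a (adjusted p = 4.48e-05) and by 1.45 ± 0.24 in 231BoM-1833 (adjusted p = 0.00528), in the same order of lines as CEMIP2. Other neighbours with a called change of at least 1 were DEPTOR near HAS2 (1.12 in 231BrM-2a over 231BoM-1833), BCL2A1 (-1.11) and ARNT2 (1.12) near CEMIP, TENM2 near HMMR (4.27) and EDIL3 near VCAN (2.15), the last 4 in 231BrM-2a over MDA-MB-231.

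**Figure D4:**
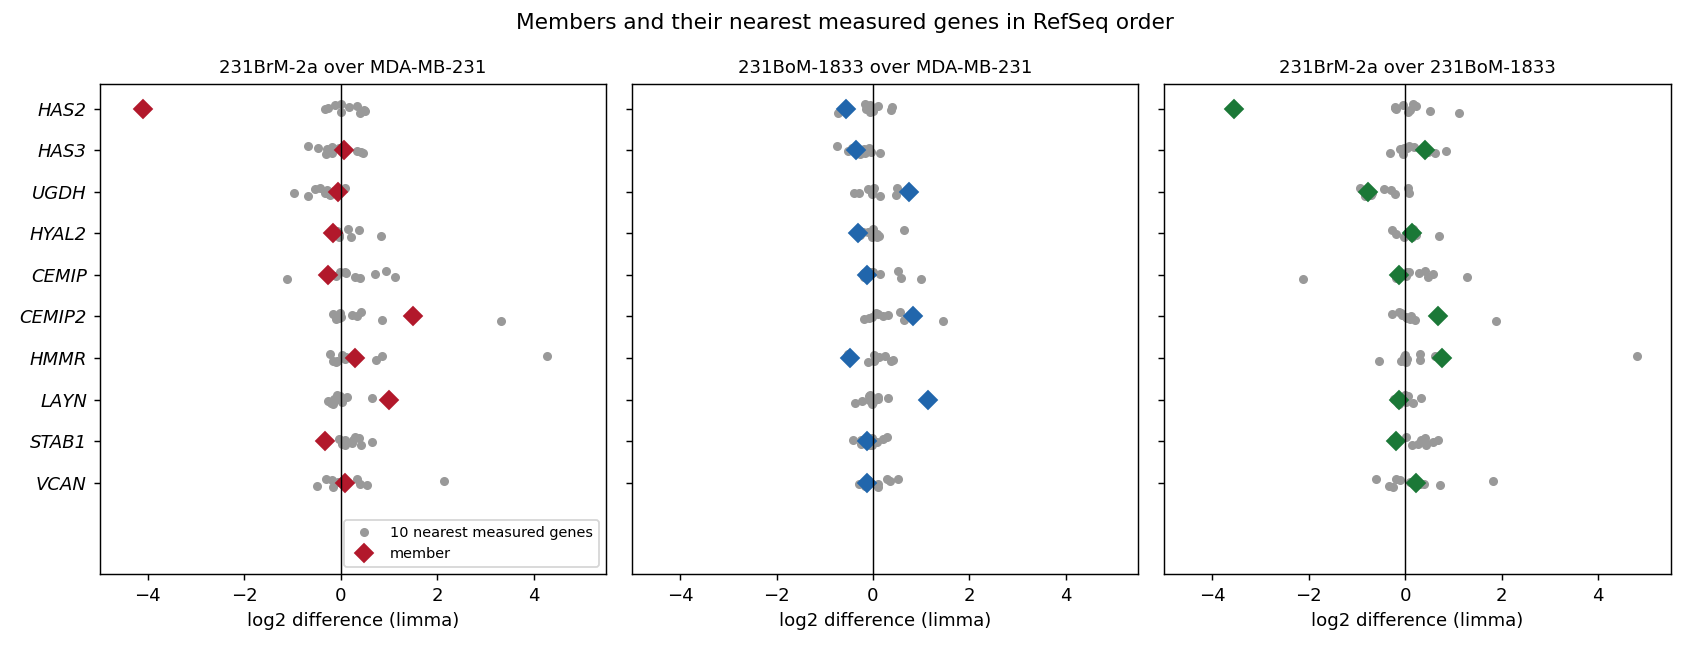
Log2 differences (x axis) of each member (diamond) and its 10 nearest measured genes in RefSeq order (grey points), in the 3 comparisons. The HAS2 diamond lies at -4.11 with its neighbours between -0.33 and 0.51, and 6 of 10 UGDH neighbours are lower in 231BrM-2a than in 231BoM-1833.

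The genes whose levels over the 6 arrays were most like those of a member were taken from genes whose line means spanned at least 1 log2 unit. For HAS2 these were SDR16C5 (Pearson r = 0.9974), KLF12 (0.9961) and ODC1 (0.995), of 1063 candidates. ODC1, the rate-limiting enzyme of polyamine synthesis, averaged 11.16 in 231BrM-2a, 12.43 in 231BoM-1833 and 12.76 in MDA-MB-231. For CEMIP2 they were ELOVL7 (0.994), GSTM3 (0.994) and SYNE2 (0.9925), and for LAYN they were BST2 (0.9907), DCLK1 (0.9892) and SFT2D2 (0.9876). BST2, an interferon-induced protein that tethers viruses, averaged 9.55 in 231BrM-2a, 9.59 in 231BoM-1833 and 7.75 in MDA-MB-231. For UGDH they were ZFAND2A (0.9779), HSD11B1 (0.9771) and ENTPD4 (0.9748), and for HAS3 PTPRU (0.9613), CPT1A (0.9591) and ARHGAP45 (0.9581). With 6 arrays in 3 lines, such likeness follows mostly from the 3 line means and is given as a description.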

How the data were processed

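The deposited values are log2 expression, 1 per transcript cluster and array, which the authors computed by RMA using Affymetrix Expression Console, as given per the labels' design text and the submitters' processing notes. RMA corrects background, quantile-normalises the arrays and summarises probes, so a shift of all RNA in a cell cannot be seen. No source used here gives the array's genome build.

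A platform table named 21214 of 33297 clusters, 19461 with 1 symbol and 1753 with several, and 12083 stayed unnamed here. Genes were read from clusters with 1 symbol. RefSeq (GRCh38.p14) served for names, gene order and promoters.

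limma 3.58.1 in R 4.3.3 was fitted with 1 mean for each line over all 6 arrays (lmFit, eBayes), two-sided, with 3 residual and 6.06 prior degrees of freedom. The fit was tested on simulated data. Of 42 genes on the wider list, 35 were measured, and the rest were not analysed here. From that list, the text names up to 4 called genes per role and comparison, or the gene with the largest change where none was called. It names the 3 genes most like each called member, and neighbours called with a change of at least 1. Members and lists were chosen with earlier results of these data known.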

Additional observations from a re-analysis of the deposited data

Results flagged for a closer look

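The changes of 4 members from MDA-MB-231 differed between the derivatives by the direct test of 231BrM-2a against 231BoM-1833 (limma): -3.56 for HAS2, 0.42 for HAS3, -0.78 for UGDH and 0.68 for CEMIP2, each as 231BrM-2a minus 231BoM-1833 on the log2 scale. UGDH was higher in 231BoM-1833 than in MDA-MB-231, with a change near 0 in 231BrM-2a (-0.047). CEMIP2 was higher in both derivatives, more so in 231BrM-2a. These were 4 of 10 members, in a comparison where 23.5% of all clusters were called.

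The same test called 8 of 35 measured genes of the wider list, beside 12.5% of all clusters higher and 11.0% lower. GNPNAT1 (-0.45), UAP1 (-1.30), CD44 (-0.54) and TLR2 (-2.78) were lower in 231BrM-2a than in 231BoM-1833, and UXS1 (1.04), TLR4 (1.12), ICAM1 (0.63) and HAPLN3 (0.47) were higher. Calls lost when 1 array was left out were GNPNAT1 (adjusted p = 0.0796 with 231BoM-1833 replicate 1 dropped, and 0.0535 and 0.139 with either 231BrM-2a array dropped), ICAM1 and HAPLN3 (both without 231BoM-1833 replicate 2, 0.0744 and 0.0554, or 231BrM-2a replicate 2, 0.107 and 0.12) and CD44 (given above).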

How the results depend on the processing

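The 14 alternatives were another quantile normalisation, median centring, leaving out the dimmest 33.3% of clusters, testing unnamed clusters too, trend and robust eBayes, fitting only the lines compared, the replicate number as a block, a crossed block and leaving out each of 6 arrays; LAYN also had its other cluster. Of these, the crossed block was added after the data were seen. Of 417 member results under alternatives, 394 kept direction and side of the threshold, 10 lost a call, 6 gained one and 7 changed sign. With any 1 array left out, 3 members were called in 231BrM-2a over MDA-MB-231. They numbered 1 to 6 in 231BoM-1833 over MDA-MB-231 when an array was left out (1 without MDA-MB-231 replicate 2, 6 without 231BoM-1833 replicate 1) and 2 to 4 in 231BrM-2a over 231BoM-1833 (2 without 231BoM-1833 replicate 2 or 231BrM-2a replicate 2), against 3 and 4 with all arrays. A line left with 1 array is assumed to vary like the others. Dropping an array of the line outside a comparison gave the same fit for that comparison as fitting only the lines compared. The 14 alternatives are thus not all distinct, and the tallies over them count that fit more than once.

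Sign changes, among members and called wider genes, were seen in changes that were not called. In 231BrM-2a against MDA-MB-231, leaving out 1 array gave HAS3 from -0.058 (without 231BrM-2a replicate 2) to 0.18, VCAN from -0.072 (the same array) to 0.24 and UGDH from -0.22 to 0.12 (without parental replicate 1; 0.057 without 231BrM-2a replicate 2). In 231BoM-1833 against MDA-MB-231 it gave CEMIP from -0.26 to 0.0099 (without 231BoM-1833 replicate 2), UXS1 from -0.16 (without 231BoM-1833 replicate 1; -0.016 without parental replicate 2) to 0.2, CD44 from -0.037 (without 231BoM-1833 replicate 1) to 0.31 and TLR2 from -0.58 to 0.049 (without 231BoM-1833 replicate 2; 0.013 without parental replicate 1). UXS1 was also -0.016 after a second quantile normalisation. Between the derivatives, CEMIP ran from -0.27 to 0.0041 (without 231BoM-1833 replicate 1), and LAYN was 0.34 by its other cluster. The causes were not tested.

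Replicates with equal numbers did not deviate together (r = -0.162 for 231BrM-2a and MDA-MB-231, 0.036 for 231BoM-1833 and MDA-MB-231, -0.165 for 231BrM-2a and 231BoM-1833), so no pairing by number showed in the values. The labels do not say whether samples with equal numbers were handled together. With the replicate block, 3, 3 and 4 members were called in the comparisons of 231BrM-2a with MDA-MB-231, 231BoM-1833 with MDA-MB-231 and 231BrM-2a with 231BoM-1833, the same genes as without it, and 3535, 2724 and 4564 clusters against 4040, 3354 and 4976. The crossed block, with the 231BrM-2a replicate numbers exchanged, called 4468, 3821 and 5387 clusters, more than the fit without a block. Whether arrays with unequal numbers share a factor was not tested.

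Leaving out 1 array lowered the count of clusters called to 1764 at the least in 231BrM-2a over MDA-MB-231, 932 in 231BoM-1833 over MDA-MB-231 and 3001 in 231BrM-2a over 231BoM-1833. With unnamed clusters tested too, 231BoM-1833 over MDA-MB-231 had 2220. The wider list had 3 to 10, 2 to 5 and 4 to 8 genes called without 1 array, against 8, 4 and 8.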
